A study of Ostreococcus tauri with 30 samples.

Results

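The change between 4 h and 12 h after a higher addition of copper was described in Ostreococcus tauri strain RCC745, a single-celled marine green alga. Copper-treated cultures sampled at 12 h (3 libraries) were set against those sampled at 4 h (3 libraries), which makes 6 of the 30 libraries of the series, chosen by their labels. The change of the untreated control cultures over the same hours (another 3 and 3 libraries) was placed beside it, and the lower copper addition (3 and 3) is quoted for orientation only. Every group was the same strain, grown in aerated flasks of enriched artificial seawater under 12 h of light and 12 h of dark, and control and copper groups differed by the added copper. Sources conflict on the dose: 25 and 250 µM in the sample labels, but 0.4 and 2 µM in the description of the treatment. The additions are therefore called lower and higher copper, their order in either source, and no dose is attached to a value. The labels do not state the hour of the light-dark cycle at which copper was added. In the copper-treated libraries, time since the addition and time of day therefore cannot be told apart.

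Copper is a cofactor of plastocyanin, an electron carrier of photosynthesis, and of cytochrome c oxidase, an enzyme of respiration. In excess it damages proteins, membranes and DNA. Green algae kept in a light-dark cycle usually order growth by day and DNA replication and division toward the night, so many transcripts move with the hour in untreated cells as well. DNA damage in eukaryotes is read by checkpoint kinases, which hold the cell cycle while repair complexes act.

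Polyadenylated RNA was counted per gene and per KEGG module. A KEGG module is a named set of gene families that form a pathway or a complex, and because a family can belong to several modules, modules share reads. The 6 libraries of higher copper held 3844216 to 5232257 gene counts and the 6 control libraries 2549094 to 4164732. Within the higher copper groups, log2 levels of genes correlated between libraries at r = 0.97 to 0.983. The labels of 1 control pair are in doubt, since the module counts of control 4 h replicate 3 were 20.05 times its gene counts and those of control 1 h replicate 3 were 6.06 times, against 9.89 to 12.2 in the other 28 libraries. With the columns of this pair exchanged in 1 table the ratios were 11.03 and 11.01. Which table would need the exchange is not known. Exchanged gene values and exchanged module values are therefore alternatives, not 1 joint setting. Control values below are as labelled, with their values for the pair exchanged or left out given where calls or the named changes are compared. Nothing in the labels says whether the replicates of a group were separate cultures, so a p-value measures the spread among these libraries, and that spread may be technical. All levels are edgeR's CPM values, which scale counts to a common, adjusted library total. A gene CPM is a share of a library's gene counts. A module CPM is a share of its module counts, in which a read can count more than once, and is not a share of reads. In such bulk samples fewer cells and less RNA per cell cannot be told apart.

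Between 4 h and 12 h of higher copper, 6 of 236 modules rose and 6 fell, which is 5.08% of all modules (2.54% in each direction; edgeR quasi-likelihood test, Benjamini-Hochberg adjusted p under 0.05). Of the modules that rose, 4 belong to DNA replication, the cell cycle and the response to DNA damage, 1 to serine synthesis and 1 to the breakdown of acylglycerols. Those that fell were the urea cycle, the synthesis of phenylalanine and of methionine, fatty acid elongation, the Sec secretion system and a module named for thiosulfate oxidation. Acylglycerol degradation was the only one of the 12 to change by 2-fold or more. In the control cultures over the same hours no module passed (0% of 236), although 25 had an unadjusted p under 0.05 and DESeq2, another count test, called 5. Scaling module counts by total gene counts ended all 12 calls; with the totals of the doubted pair exchanged, a setting added after seeing the data, 11 of the 12 were called.

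**Figure D1:**
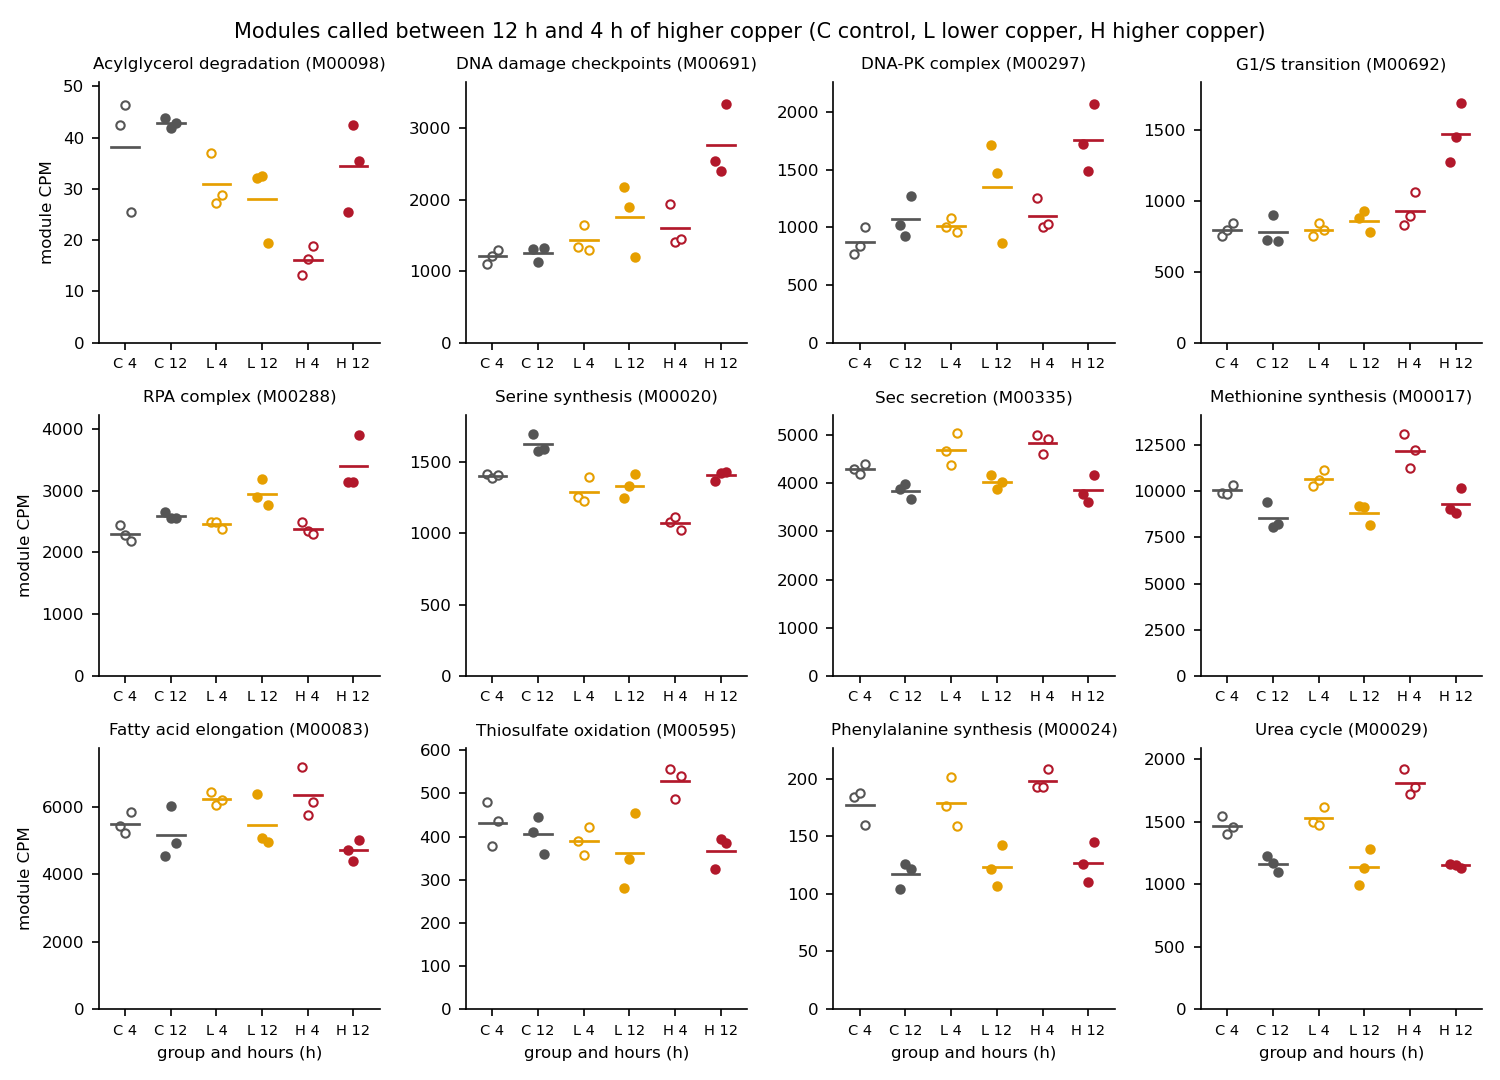
Levels of the 12 modules called between 4 h and 12 h of higher copper, in module CPM (y axis, from 0) for 6 groups of 3 libraries (points; lines are group means). The 4 h points (open) and the 12 h points (filled) of higher copper do not overlap in any of the 12 panels. These modules were chosen by a small p, which favours such separation. Lack of overlap does not set the called modules apart, since several modules that were not called also lack it. Examples are glycolysis (M00001), gluconeogenesis (M00003), the shikimate pathway (M00022) and the synthesis of tryptophan (M00023) and histidine (M00026). Histidine synthesis had an edgeR adjusted p of 0.477. The share of all modules without overlap is not given here.

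The module of the G1/S transition (M00692) holds the cyclins, cyclin-dependent kinases and partners that commit a cell to DNA replication. Its level was 830, 893 and 1063 CPM in the 4 h libraries of higher copper and 1273, 1451 and 1687 CPM in the 12 h libraries. All 12 h libraries lay above all 4 h libraries. The rise was 0.66 ± 0.12 on the log2 scale (standard error; edgeR adjusted p = 0.000611). In the control libraries the level was 752, 795 and 843 CPM at 4 h and 726, 899 and 719 CPM at 12 h, so those groups overlapped, and the change was -0.03 ± 0.12. At 1 h of higher copper the libraries read 864, 977 and 857 CPM, within the range of the 4 h libraries. The lower addition gave 750, 841 and 792 CPM at 4 h and 878, 927 and 777 CPM at 12 h.

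The module of DNA damage-induced checkpoints (M00691), which covers the kinases that sense DNA damage and the proteins they act on, stood at 1933, 1414 and 1455 CPM at 4 h and at 2544, 2397 and 3333 CPM at 12 h. The groups did not overlap, with the highest 4 h value in replicate 1 and the highest 12 h value in replicate 3. The rise was 0.79 ± 0.19 (log2; edgeR adjusted p = 0.0118). Control libraries lay between 1105 and 1327 CPM over both times, with a change of 0.06 ± 0.19. Without replicate 2 or 3 of 4 h, or replicate 3 of 12 h, the module was no longer called.

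Replication protein A (M00288), the complex that coats single-stranded DNA during replication and repair, measured 2497, 2349 and 2294 CPM at 4 h and 3144, 3144 and 3907 CPM at 12 h. Every 12 h library was above every 4 h library, by 0.51 ± 0.08 in the fit (log2; edgeR adjusted p = 0.000313). The control libraries were also without overlap, at 2448, 2284 and 2188 CPM against 2655, 2564 and 2556 CPM, but their change of 0.17 ± 0.08 did not pass (edgeR adjusted p = 0.47). The lower addition went from a mean of 2458 ± 63.5 CPM at 4 h to 2951 ± 220 CPM at 12 h (SD, n = 3 libraries).

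The DNA-dependent protein kinase complex (M00297) serves the joining of broken DNA ends. It read 1258, 1006 and 1025 CPM at 4 h and 1719, 1488 and 2071 CPM at 12 h, again without overlap, and rose by 0.68 ± 0.20 (log2; edgeR adjusted p = 0.0406). Its control change was 0.30 ± 0.19. The call was lost without replicate 2 or 3 of 4 h and without replicate 1 or 3 of 12 h. Across the 30 libraries its log2 level followed that of the checkpoint module (r = 0.944), and the gene families behind either module are not listed in the table.

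**Figure D2:**
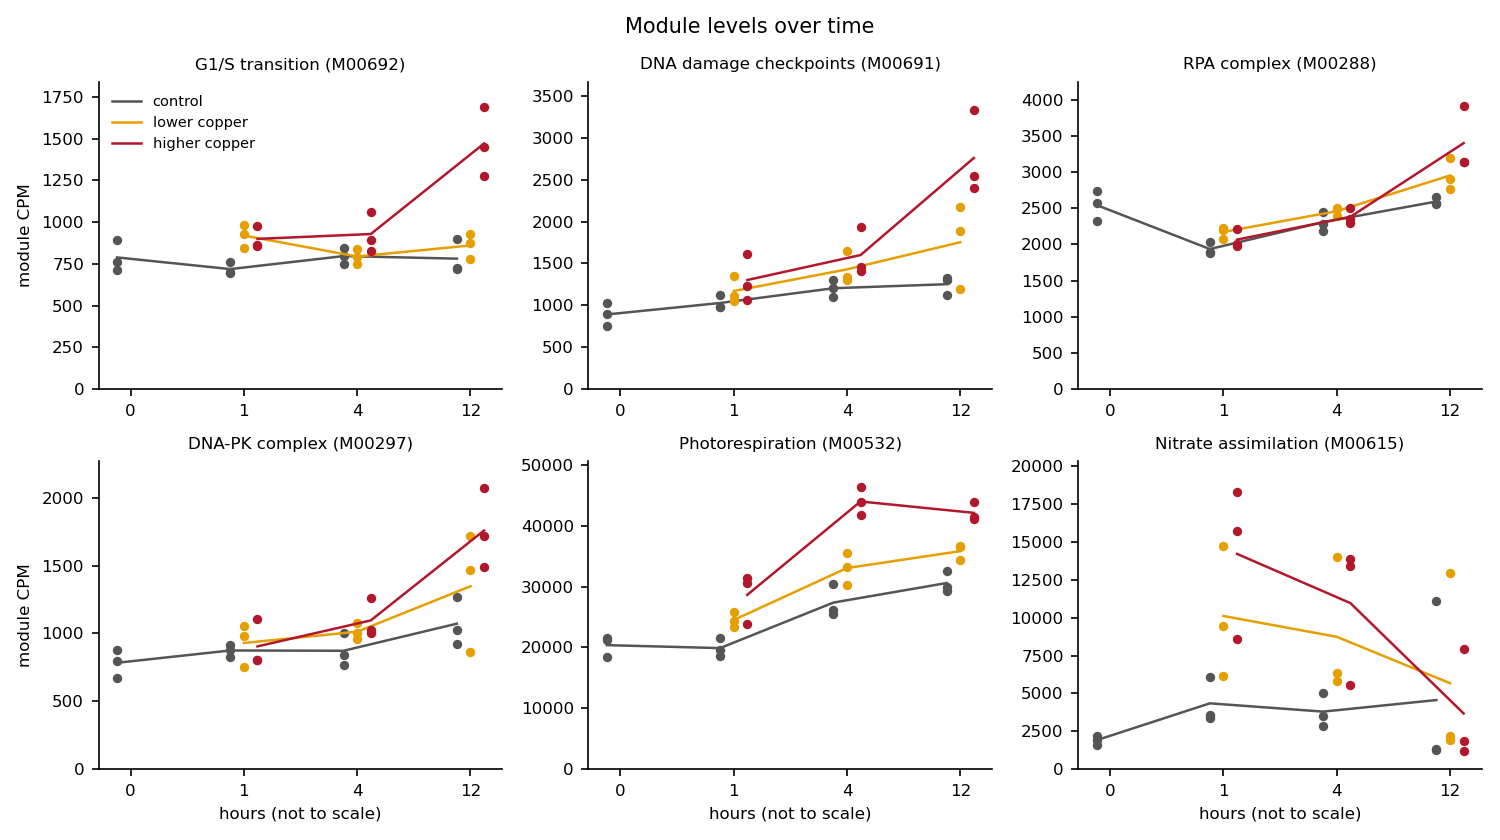
Module CPM (y axis) by hours after copper addition (x axis, not to scale) for control, lower copper and higher copper; points are libraries and lines join the means of 3. The top row and the DNA-PK panel rise from 4 h to 12 h of higher copper, photorespiration lies between 41019 and 46314 CPM at those times, and nitrate assimilation ranges from 1210 to 13907 CPM over the 4 h and 12 h libraries of higher copper.

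The list of cell cycle, checkpoint and repair modules had 10 members, of which 3 rose, none fell and 7 did not pass, with a median log2 change of 0.24 under higher copper and 0.18 in the controls. The medians over all 236 modules were -0.01 and -0.01, and 5.08% of all modules were called under higher copper. Among the 7, the Fanconi anemia core complex (M00413), which acts on DNA cross-links, had a value of 1.13 ± 0.41 (edgeR adjusted p = 0.123). Base excision repair (M00296), which removes damaged bases, stood at 0.25 ± 0.13 under higher copper and 0.24 ± 0.13 in the controls. The G2/M transition (M00693), the entry into mitosis, was at 0.03 ± 0.15 and 0.31 ± 0.15 in the same order.

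Of 7 DNA replication modules, replication protein A rose and 6 did not pass, with medians of 0.22 under higher copper and 0.07 in the controls. Over all 236 modules 5.08% were called under higher copper (2.54% as rises), with medians of -0.01 and -0.01. In a list of 7, 1 call is little different from that share. DNA polymerase delta (M00262), the main lagging-strand enzyme, came nearest at 0.44 ± 0.14 (edgeR adjusted p = 0.0735), and its control value was 0.33 ± 0.14. The complex that binds replication origins (ORC, M00284) stood at 0.31 ± 0.14 (adjusted p = 0.209), and the MCM helicase (M00285) that unwinds DNA at 0.22 ± 0.22. The MCM helicase read 6624, 6376 and 5204 CPM at 4 h of higher copper and 7748, 6314 and 7195 CPM at 12 h. Those libraries overlapped. DNA polymerase alpha (M00261), which primes synthesis, had a value of 0.07 ± 0.10 under higher copper and in the controls alike.

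Serine synthesis from 3-phosphoglycerate (M00020), which supplies an amino acid used for protein, lipid and cysteine synthesis, rose from 1079, 1114 and 1022 CPM at 4 h to 1367, 1424 and 1431 CPM at 12 h of higher copper. The groups were well apart, and the rise was 0.39 ± 0.08 (log2; edgeR adjusted p = 0.00144). The controls read 1420, 1387 and 1412 CPM at 4 h and 1696, 1581 and 1596 CPM at 12 h, a change of 0.21 ± 0.08 that did not pass. At 1 h of higher copper the libraries had been at 1410, 1693 and 1660 CPM, so the 12 h values lay nearer to the 1 h values than the 4 h values did.

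Acylglycerol degradation (M00098), the lipases that release fatty acids from storage lipid, was a low module. It measured 13.2, 16.2 and 18.8 CPM at 4 h and 25.4, 42.6 and 35.4 CPM at 12 h, and rose by 1.10 ± 0.30 (log2; edgeR adjusted p = 0.0293). The control libraries read 42.5, 46.4 and 25.5 CPM at 4 h and 43.9, 41.8 and 42.8 CPM at 12 h, so at 12 h replicate 2 of higher copper lay within the control range of that hour and the other 2 below it. This call was lost without any 1 of the 4 h libraries, without replicate 2 or 3 of 12 h, and when only the compared groups were fitted.

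The urea cycle module (M00029), whose enzymes handle arginine and ornithine, had the largest log2 fall of those that passed. Its levels were 1927, 1721 and 1779 CPM at 4 h and 1164, 1153 and 1134 CPM at 12 h, a fall of 0.65 ± 0.10 without overlap (log2 change -0.65; edgeR adjusted p = 0.000313). The controls went from 1545, 1404 and 1457 CPM to 1228, 1168 and 1101 CPM, again without overlap, a change of -0.33 ± 0.10 that did not pass (adjusted p = 0.14). At 12 h the copper-treated libraries lay inside the range of the controls, whereas at 4 h all 3 lay above it.

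Phenylalanine synthesis (M00024) makes an aromatic amino acid from chorismate. It stood at 193, 192 and 208 CPM at 4 h and at 126, 110 and 145 CPM at 12 h of higher copper, and fell by 0.64 ± 0.16 (log2 change -0.64; edgeR adjusted p = 0.0118). The control libraries read 184, 188 and 160 CPM and then 104, 126 and 122 CPM, a change of -0.60 ± 0.16 (edgeR adjusted p = 0.0863, DESeq2 adjusted p = 0.0299). The difference between these changes was -0.04 ± 0.22. The call under higher copper was lost without replicate 3 of 4 h, without replicate 2 of 12 h, and with only the compared groups in the fit.

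Methionine synthesis (M00017), which feeds protein synthesis and methyl transfer, read 13088, 11262 and 12219 CPM at 4 h and 9034, 8796 and 10159 CPM at 12 h. It fell by 0.39 ± 0.08 (log2 change -0.39; edgeR adjusted p = 0.0033), without overlap, against a control change of -0.23 ± 0.08. The Sec system (M00335), which moves proteins across membranes, went from 5003, 4597 and 4920 CPM to 3766, 3615 and 4169 CPM. Its log2 change was -0.33 ± 0.07 (edgeR adjusted p = 0.00425), and the control change was -0.16 ± 0.07. The log2 levels of these 2 modules correlated at r = 0.902 over the 30 libraries, and neither was called when only the compared groups were fitted.

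Fatty acid elongation (M00083), the repeated condensation cycle that builds acyl chains, measured 7167, 5748 and 6131 CPM at 4 h and 4732, 4390 and 5009 CPM at 12 h. It fell by 0.43 ± 0.11 (log2 change -0.43; edgeR adjusted p = 0.0141), without overlap. The control libraries overlapped, at 5432, 5223 and 5840 CPM against 4550, 6019 and 4922 CPM, with a change of -0.09 ± 0.11. The call was lost without replicate 1 of 4 h, without replicate 2 of 12 h, and with only the compared groups.

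The module named for thiosulfate oxidation by the SOX complex (M00595), a system described in bacteria, had 558, 487 and 540 CPM at 4 h and 324, 395 and 384 CPM at 12 h. Its log2 change of -0.52 ± 0.15 passed narrowly (edgeR adjusted p = 0.043), and the control change was -0.09 ± 0.15. Leaving out any 1 of the 6 libraries, or exchanging or leaving out the doubted control pair, ended the call. The 1 h libraries of higher copper read 335, 355 and 400 CPM, which is where the 12 h libraries stood.

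**Figure D3:**
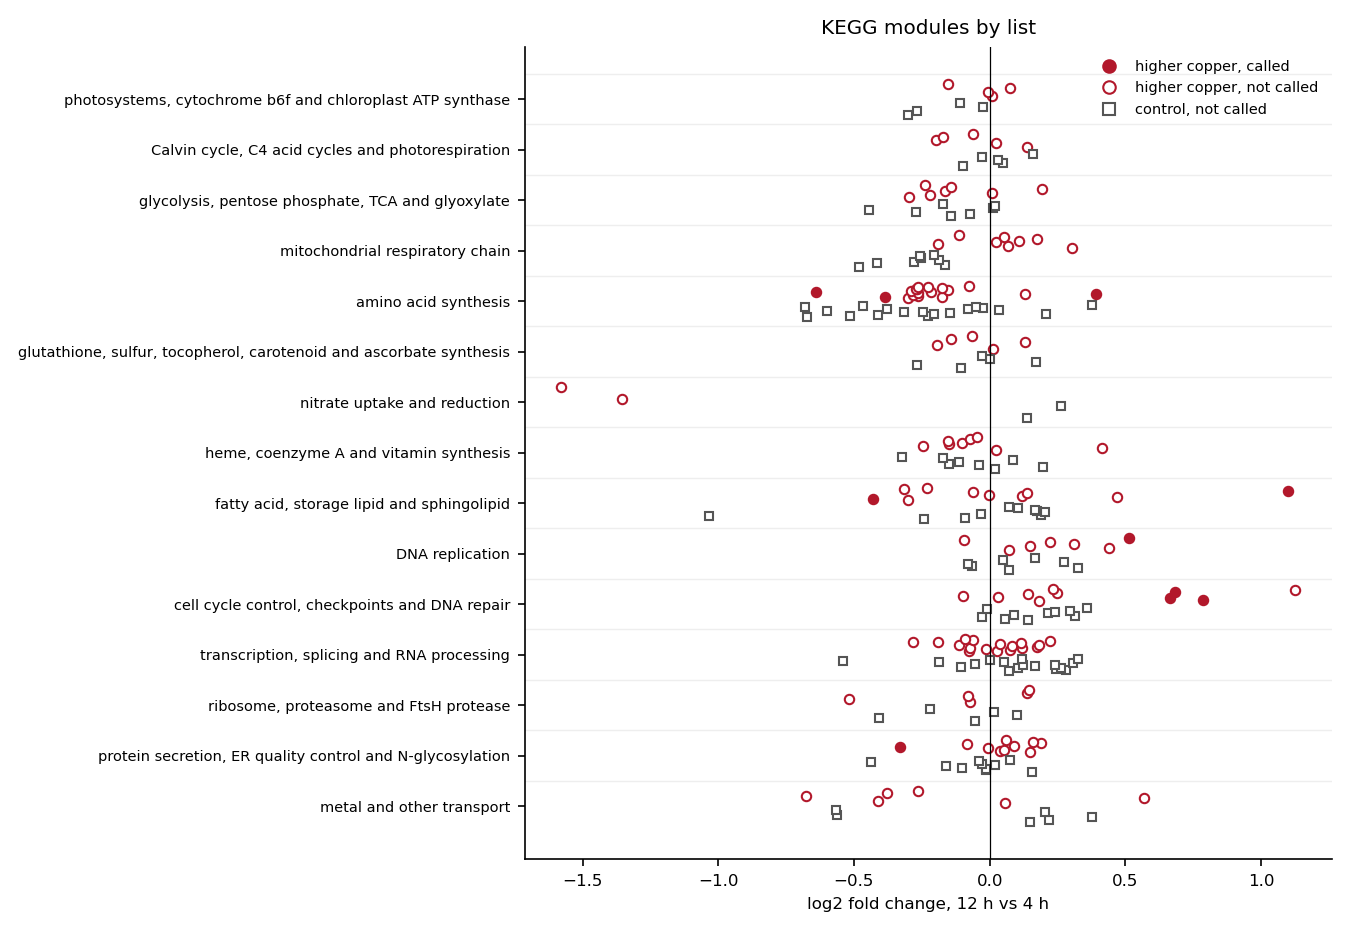
Log2 fold change between 4 h and 12 h (x axis) of each module in 15 lists (rows), for higher copper (circles, filled where called) and control (squares, none called). Most members sit near 0, and the called members are in 5 of the lists.

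Of 18 amino acid synthesis modules, 1 rose, 2 fell and 15 did not pass, beside 5.08% called of all 236 modules. Their median was -0.26 under higher copper, with 16 of 18 below 0, and -0.24 in the controls, with 15 of 18 below 0. Isoleucine synthesis from threonine (M00570) read 5113, 5157 and 5112 CPM at 4 h and 5072, 4531 and 4998 CPM at 12 h of higher copper, a change of -0.08 ± 0.12. In the controls it stood at 0.38 ± 0.12, and the difference of -0.45 ± 0.17 had an unadjusted p of 0.0151 and did not pass adjustment.

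Nitrate uptake and reduction, the entry of nitrogen into the cell, varied widely between libraries of a group. Nitrate assimilation (M00615) read 13907, 5554 and 13451 CPM at 4 h of higher copper and 1845, 1210 and 7969 CPM at 12 h. Replicate 3 of 12 h stood above replicate 2 of 4 h, and the change of -1.58 ± 0.78 did not pass (edgeR adjusted p = 0.237). The controls read 3526, 2824 and 5046 CPM at 4 h and 1234, 11123 and 1331 CPM at 12 h, so that replicate 2 of 12 h was far above the other 2, and their change was 0.26 ± 0.76. Assimilatory nitrate reduction (M00531) had the same high and low libraries, with a value of -1.36 ± 0.81 under higher copper (adjusted p = 0.377).

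Modules of the photosynthetic and respiratory electron chains did not pass. Their gene families are not listed, so plastocyanin and copper-binding subunits were not read on their own. How fully polyadenylated RNA covers transcripts of the chloroplast and mitochondrial genomes was not tested. Cytochrome c oxidase (M00154), a copper enzyme, stood at 0.05 ± 0.18 under higher copper and -0.26 ± 0.18 in the controls. None of the 8 respiratory chain modules passed, beside 5.08% of all 236 modules, and their median was 0.06 under higher copper. All 8 were below 0 in the controls, with a median of -0.25. The Fe-S and flavoprotein part of complex I (M00143) was the member of this list whose difference from the control change had an unadjusted edgeR p under 0.05, at 0.23 ± 0.09. Photosystem I (M00163), the cytochrome b6f complex (M00162) and photosystem II (M00161) stood at 0.08 ± 0.12, -0.01 ± 0.17 and 0.01 ± 0.60. Photosystem II ranged from 197 to 800 CPM within the 4 h libraries of higher copper.

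Photorespiration (M00532), the salvage of the oxygenation product of Rubisco, read 41700, 43920 and 46314 CPM at 4 h and 41415, 41019 and 43899 CPM at 12 h of higher copper. The groups overlapped and the change was -0.06 ± 0.10 (edgeR adjusted p = 0.862). The control libraries lay lower at both times, at 25475 to 30416 CPM and 29293 to 32575 CPM. Glutathione synthesis (M00118), which makes the main soluble thiol that binds copper, read 700, 694 and 702 CPM at 4 h and 764, 765 and 587 CPM at 12 h, a change of 0.01 ± 0.17. The control libraries stood at 1036 to 1315 CPM and 1021 to 1143 CPM.

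None of the 6 transport modules passed, with a median of -0.32 under higher copper and 0.18 in the controls. The iron complex transport module (M00240) had a value of -0.38 ± 0.18 (edgeR adjusted p = 0.233), and its difference from the control change was -0.58 ± 0.26 (unadjusted p = 0.0323). None of the 17 modules of transcription, splicing and RNA processing passed, and their median was 0.03. None of the 5 of the ribosome, proteasome and FtsH protease passed either. Over all 236 modules 5.08% were called, so no call in lists of these sizes is near that share. The ribosome of eukaryotes (M00177) read 65629, 67742 and 62854 CPM at 4 h and 72201, 69557 and 44999 CPM at 12 h, where replicate 3 stood far below the other 2.

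Whether the change under higher copper differed from the control change was tested as the difference between both changes. No module passed this test (0% of 236; smallest edgeR adjusted p = 0.0754), 15 had an unadjusted p under 0.05, and DESeq2 called 1. The G1/S module (M00692) had that smallest p, with a difference of 0.69 ± 0.16 and a higher value in 3 of 3 libraries at 12 h of higher copper. It was called in 6 of 21 other settings, and the adjusted p ranged from 0.00597 to 0.436. Among the 6 were the fit with the replicate number as a block (adjusted p = 0.026), DESeq2 (0.00597) and DESeq2 size factors (0.049). The correlations between libraries do not settle whether the replicate numbers pair them, so the block carries no added weight. With the doubted control labels exchanged the difference was 0.64 (adjusted p = 0.225), and with that pair left out 0.64 (0.177).

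For the other modules that changed under higher copper, the differences from the control change were 0.73 ± 0.27 for DNA damage checkpoints (M00691), 0.35 ± 0.12 for replication protein A (M00288) and 0.93 ± 0.42 for acylglycerol degradation (M00098). They were 0.39 ± 0.27 for the DNA-dependent protein kinase (M00297) and 0.19 ± 0.11 for serine synthesis (M00020). Among the falls, they were -0.32 ± 0.15 for the urea cycle (M00029), -0.34 ± 0.15 for fatty acid elongation (M00083) and -0.43 ± 0.21 for thiosulfate oxidation (M00595). They were smaller for methionine synthesis (M00017) at -0.16 ± 0.11, the Sec system (M00335) at -0.17 ± 0.10 and phenylalanine synthesis (M00024) at -0.04 ± 0.22. None of these passed, and since the modules were chosen by their change under higher copper the values are a description.

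The doubted control pair moved these control values. With its labels exchanged, the control change was 0.02 for the G1/S module (M00692), 0.13 for checkpoints (M00691), 0.23 for replication protein A (M00288), 0.35 for the DNA-dependent protein kinase (M00297) and 0.09 for serine synthesis (M00020). Acylglycerol degradation (M00098), at 0.17 as labelled, stood at -0.10 with the labels exchanged and -0.03 with the pair left out. The control changes of the falls, with labels exchanged, were -0.34 for the urea cycle (M00029), -0.50 for phenylalanine (M00024), -0.16 for methionine (M00017), -0.11 for the Sec system (M00335), -0.02 for fatty acid elongation (M00083) and -0.05 for thiosulfate oxidation (M00595). With the pair left out, isoleucine synthesis (M00570) was the control module that passed, at 0.56 (edgeR adjusted p = 0.034), and none of the 12 modules passed in the controls in either setting. The respiratory chain modules were below 0 in the controls in all 8 cases in both settings, with medians of -0.35 and -0.34.

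At the level of single genes, 98 of 7190 genes tested rose and 99 fell between 4 h and 12 h of higher copper, 2.74% of those tested (1.36% and 1.38%; edgeR adjusted p under 0.05). Of these, 24 rises and 7 falls were of 2-fold or more. The count was 326 with DESeq2, 117 without 4 h replicate 1, 104 without 4 h replicate 3 and 123 without 12 h replicate 2. Without 12 h replicate 3 it was 152, of which 113 were among the genes called with all libraries. In the controls 2 genes rose and 9 fell, 0.153% of those tested (0.0278% and 0.125%), a count that was 0 to 1 with any 1 library left out, 4 with the doubted labels exchanged and 1 with that pair left out. When only the compared groups were fitted, 40 genes were called under higher copper and 35 in the controls, and the counts were close. The standard deviation of the log2 changes over all genes was 0.49 in the controls (0.44 with the doubted labels exchanged, 0.53 with the pair left out) against 0.35 under higher copper. An unadjusted p under 0.05 was held by 940 genes under higher copper and by 1028 in the controls (761 exchanged, 865 left out). No gene passed the test of the difference between both changes (0% of 7190; smallest edgeR adjusted p = 0.0811), with 557 at an unadjusted p under 0.05 and 6 called by DESeq2.

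The genes called under higher copper mostly had the same sign in the control and lower copper libraries, which do not enter the contrast but share the fit's estimate of the spread. Of the 98 that rose, 82 (83.7%) had a control change above 0 and 93 (94.9%) a change above 0 under lower copper, against 48.5% and 56.5% of all genes tested. Their median log2 changes were 0.77 under higher copper, 0.33 under lower copper and 0.20 in the controls. Of the 99 that fell, 84 were below 0 in the controls and 93 under lower copper, with medians of -0.66, -0.35 and -0.30 in that order. With the doubted control labels exchanged the control counts were 83 and 89, and with the pair left out 74 and 88. The higher copper value is inflated by the choice of the genes on it, so the order of the medians is a description.

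**Figure D4:**
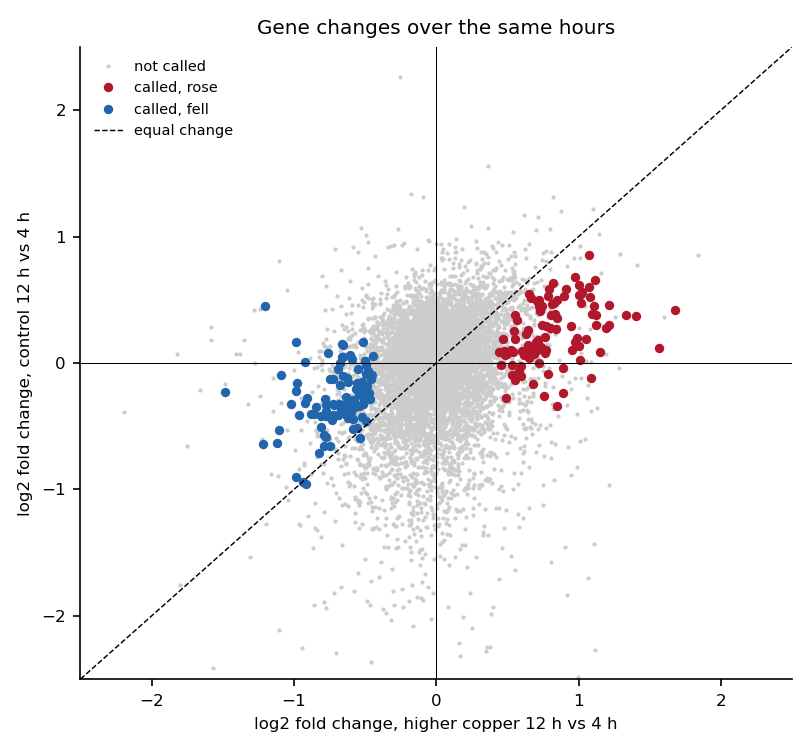
Log2 fold change between 4 h and 12 h of each gene tested, in the controls (y axis) against higher copper (x axis), with 98 rises and 99 falls called under higher copper in colour and the dashed line at equal change; 21 genes lie outside the axes. Most rises lie right of 0 and above 0 but below the dashed line, and most falls lie left of 0 and below 0.

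Of the 11 genes called in the controls, 4 were also called under higher copper, which is 36.4% of the control calls and 2.03% of the 197. Over all 7190 genes tested, 2.74% were called under higher copper and 0.153% in the controls. All 4 shared genes fell in both. They were OT_ostta04g00640, OT_ostta06g00460, OT_ostta08g01650 and OT_ostta09g03020, listed after their values were seen. OT_ostta04g00640 had the smallest adjusted p of all genes under higher copper (3.93e-06 in edgeR), with a log2 change of -1.12, and -0.63 ± 0.12 in the controls. OT_ostta08g01650 had equal changes of -0.93 ± 0.17 and -0.94 ± 0.18.

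The locus tags carry no description in the sources used here, so the genes with the largest change are named by tag alone. The largest rise among genes that passed, with no overlap between libraries, was in OT_ostta12g01210, with 6.63, 6.56 and 10.3 CPM at 4 h of higher copper and 17.9, 24.5 and 33.5 CPM at 12 h. It rose by 1.68 ± 0.28 (log2; edgeR adjusted p = 0.000781) and stood at 0.42 ± 0.34 in the controls. Its neighbour on chromosome 12, OT_ostta12g01200, had the next largest rise, from 5.31, 3.52 and 3.20 CPM to 12.2, 8.74 and 14.3 CPM. That rise of 1.56 ± 0.37 (adjusted p = 0.0182) rests on 15 to 20 reads in each 4 h library, and the call was lost with DESeq2, with only the compared groups fitted, and without replicate 2 or 3 of 4 h or replicate 3 of 12 h. How reads overlapping both neighbours were counted is not stated in the labels.

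The largest fall was in OT_ostta02g04110, from 23.3, 20.6 and 21.5 CPM at 4 h to 9.51, 6.78 and 7.23 CPM at 12 h, a log2 change of -1.48 ± 0.22 (edgeR adjusted p = 0.00023). The control libraries read 7.39, 6.02 and 11.2 CPM at 4 h and 8.05, 4.02 and 8.18 CPM at 12 h. The higher copper libraries thus lay above them at 4 h and at their level at 12 h. Lower copper gave 14.5, 15.2 and 12.6 CPM at 4 h and 6.25, 4.82 and 5.53 CPM at 12 h. The log2 change under lower copper was -1.35, and all of its 12 h libraries lay below all of its 4 h libraries. That change, and whether it differs from the change under higher copper, was not tested. OT_ostta03g00620 fell from 35.3, 39.4 and 46.6 CPM to 17.1, 19.7 and 15.6 CPM (-1.21 ± 0.19; adjusted p = 0.000415), with a control change of -0.64 ± 0.19. OT_ostta12g01210, OT_ostta02g04110 and OT_ostta03g00620 were called in all 13 other settings tried.

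**Figure D5:**
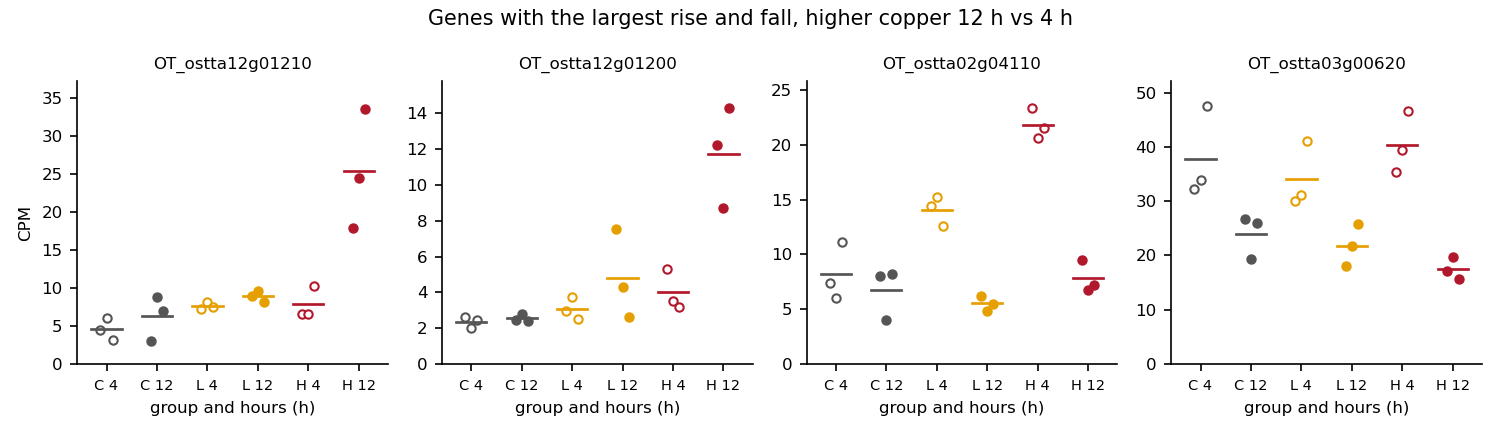
CPM (y axis, from 0) of the 4 genes with the largest rises and falls between 4 h and 12 h of higher copper, in 6 groups of 3 libraries (C control, L lower copper, H higher copper; points are libraries, lines are means). The 4 h (open) and 12 h (filled) points of higher copper do not overlap in any panel, which the rule that chose these genes required.

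In the controls, the named calls rest on every library: OT_ostta14g01730 and OT_ostta08g01650 were lost in 8 of 13 other settings, OT_ostta04g00050 in 9 and OT_ostta06g00890 in 10, each of them with the doubted labels exchanged, with that pair left out and with any 1 control library left out. The named rises were OT_ostta14g01730 at 1.16 ± 0.24 (edgeR adjusted p = 0.0437; 0.72 under higher copper, adjusted p = 0.0869) and OT_ostta06g00890 at 0.88 ± 0.19 (0.0479; 0.13 under higher copper). OT_ostta04g00050 fell by 0.93 ± 0.19 in the controls (log2 change -0.93; adjusted p = 0.0437) and stood at -0.01 ± 0.19 under higher copper, with 20.7 CPM on average at both times.

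Calls were spread over the chromosomes of the locus tags. The share called under higher copper ran from 1.56% (8 of 512 genes on chromosome 2) to 4.61% on chromosome 12. On chromosome 19 none of 55 genes was called. Over all genes tested the share was 2.74%, so no call among 55 genes is near that share. Chromosomes 2 and 19 of this alga differ in base composition from the rest, and whether this bears on the calls was not tested. The median log2 change of the 55 genes on chromosome 19 was -0.20 under higher copper and 0.26 in the controls, beside -0.01 and -0.02 over all genes. Chromosome 2 had 1 rise and 7 falls, with medians of -0.04 and 0.12. Among 6782 pairs of neighbouring genes tested, 9 pairs were called in the same direction, 6 as rises and 3 as falls, and 1 pair in opposite directions.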

How the data were processed

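Polyadenylated RNA from 30 samples in 10 groups of 3 was sequenced as single reads of 50 bases, per the labels' protocols. The authors deposited read counts per gene (7627 genes) and counts per KEGG module (236), neither normalized. Not given in the sources used here are the aligner, counting tool, strand setting and genome build. The submitters' processing notes name DESeq2. The deposited comparison tables (9, each with a log2 fold change, a test score and p-values per the file headers) were not used. No sample column was left unused (0). An unnamed row of the gene table, with the whole numbers from 1 to 30 and 0.000377% of counts, was left out.

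The tests were run with edgeR 4.0.16 under R 4.3.3 (TMM scaling, quasi-likelihood F test, 1 fit of 10 group means over 30 libraries, 20 residual degrees of freedom). filterByExpr kept 7190 genes and removed 437; modules were not filtered. A feature was called at a Benjamini-Hochberg adjusted p under 0.05, taken within each comparison. The comparisons were higher copper 12 h against 4 h, control 12 h against 4 h, and the difference of those changes. The tests were tried on simulated counts. DESeq2 1.42.0 and other settings were run as alternatives.

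Genes named were those called whose libraries did not overlap and whose mean log2 CPM reached 1, ranked by absolute change, up to 2 in each direction because no functional names were at hand (7626 of 7627 identifiers matched a RefSeq table of the RCC4221 assembly, 2 with a symbol). The groups, module lists and rules were chosen with earlier results of these data known. A planned description of promoter letters was not made, as no sequences were used here. Deviations from the group mean correlated between same-numbered higher copper libraries at 4 h and 12 h (r = 0.403, 0.222 and 0.142 across genes for replicates 1 to 3). However, 4 h replicate 3 correlated most with 12 h replicate 2 (0.478). The differently numbered pairs 4 h replicate 2 with 12 h replicate 1 and 4 h replicate 1 with 12 h replicate 3 stood at 0.143 and 0.107. Same-numbered control libraries stood at -0.0736, 0.0748 and 0.2. These values do not settle whether the replicate numbers pair the libraries.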

Additional observations from a re-analysis of the deposited data

How the results depend on the processing

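None of the 197 genes and 12 modules called under higher copper, nor of the 11 control genes, changed sign in any setting run. Genes called under higher copper (197) numbered 326 with DESeq2, which shared 195, and 40 with only the compared groups fitted. They numbered 104 to 194 with 1 library left out. The counts were 117 without 4 h replicate 1, 104 without 4 h replicate 3 (38 rises and 66 falls) and 123 without 12 h replicate 2. Without 12 h replicate 3 they numbered 152, of which 113 were among the 197. Without 12 h replicate 1 they numbered 194, of which 158 were shared. With no filter on low counts 99 rose and 75 fell. Control genes (11) numbered 72 with DESeq2, 17 with the replicate block, 4 with the doubted labels exchanged, 1 with that pair left out, 35 with only the compared groups, and 0 to 1 with 1 library left out. Genes whose changes differed (0) numbered 6 with DESeq2, 2 with labels exchanged, 3 with the pair left out and 0 to 4 with 1 library left out.

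Modules under higher copper (12) numbered 21 with DESeq2, 7 with only the compared groups, 7 to 11 with 1 library left out (7 without 4 h replicate 3), and 0 when scaled by total gene count, where the doubted pair's totals do not match its module counts. With those totals exchanged, a setting added after seeing the data, 16 were called and 11 of the 12 were among them. Control modules (0) numbered 5 with DESeq2, 1 with labels exchanged, 1 with the pair left out and 0 to 1 with 1 library left out. Modules whose changes differed (0) numbered 1 with DESeq2, 1 with DESeq2 size factors, 1 with the replicate block and 0 to 1 with 1 library left out. The replicate block gave 238 genes and 15 modules under higher copper, with 196 and 12 shared, and ended no named call. The causes were not tested.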
